A study of Homo sapiens with 6 samples.

Results

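The p53 target genes examined here are 30 genes whose transcription is known to be raised by p53. They were chosen by name from general knowledge of the pathway, with earlier results of these libraries known. All 30 were among the 26899 genes of the deposited counts, and 29 of them passed the low-count filter that left 15299 genes for testing. The data were 6 polyadenylated RNA-seq libraries of the HK-2 line, an established human line from the proximal tubule of the kidney, which the labels describe as transformed with human papillomavirus 16. The labels gave 3 libraries as wild type, with shCtrl in their descriptions, and 3 as ANXA2 knockdown, with shANXA2. They are called control and knockdown below, numbered 1 to 3, and whether the control cells carried a hairpin is not settled by the labels. The protocol, given alike for both groups, describes delivery of plasmids by lipid transfection, and nothing in the labels says that the replicates were separate cultures, so p-values measure the spread between these libraries, which may be technical.

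p53 is a transcription factor that is kept scarce in unstressed cells, mainly because its target MDM2 marks it for destruction, and it accumulates after DNA damage and other stress. Its targets then halt the cell cycle, promote DNA repair or trigger apoptosis, while several of them feed back to switch p53 off. In cells with papillomavirus 16 the viral protein E6 recruits the host ubiquitin ligase UBE3A to degrade p53, so that the protein is held low. Viral transcripts and proteins were not analysed here. The members were placed in 4 classes. The arrest class held BTG2, GADD45A, PLK2, PLK3, GDF15 and SESN1. The apoptosis class held 14 genes with BAX, BBC3 and FAS among them. The repair class held XPC, DDB2, RRM2B and POLH. The class of feedback and other genes held MDM2, PPM1D, CCNG1, FBXO22, FDXR and ZMAT3.

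Library depth ranged from 24231267 counted reads in control 1 to 34561675 in knockdown 1. Values per library are CPM, counts per 1000000 reads in tested genes after TMM scaling. ANXA2, the targeted gene, reached 1598 ± 119 CPM in control and 1539 ± 21.3 CPM in knockdown (SD, n = 3), with a log2 fold change of -0.05 and an edgeR adjusted p of 0.848. The label of knockdown is thus not borne out by the ANXA2 transcript, and each direction below is a difference between the libraries labelled knockdown and those labelled control. Replicates differed well beyond sampling noise, with a chi-square statistic per degree of freedom of 9.64 to 49.7. Of the 14 epithelial and tubule markers, 8 were abundant, namely KRT8, KRT18, KRT19, VIM, PAX8, EPCAM, CDH2 and the brush-border enzyme GGT1 (66.7 ± 3.002 FPKM in control). The other 6, which were the proximal tubule genes LRP2, CUBN, ANPEP, AQP1 and SLC34A1 and the epithelial cadherin CDH1, were at or near 0. Of 9 markers of leukocytes, endothelium and fibroblasts, 6 were listed, with a summed level of 6.91 to 13.5 CPM in control and 6.62 to 13.5 CPM in knockdown; PTPRC, CD3E and VWF were not listed. The median log2 ratio of 16 interferon response genes to the control mean was 0.84 to 1.79 in the knockdown libraries and -0.17 to 0.13 in control.

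In order to show the DNA element through which p53 acts on these genes, the reference genome was searched for the p53 consensus within 2000 bases of each gene's start site. The consensus is a pair of adjoining p53 half-sites, 20 bases long in all, each with a core that begins with C, ends with G and has A or T at both positions between. It reads as itself on the opposite strand, so 1 scan covers both. Both cores had to be intact, with at most 2 mismatches at the other positions. A match was found for 10 of the 30 members (33.3%), against 213 of 12928 tested protein-coding genes (1.65%). With at most 1 mismatch the shares were 10.0% and 0.271%. The members were listed because p53 is known to act on them, so these shares describe the list. A match is not evidence of binding in these cells, and no match says only that these letters are not in the window. Below, 6 of the matches are shown on the strand of the gene with the cores in capitals, namely the 3 with the fewest mismatches and 3 that lie before the start site of members that varied between libraries. Coordinates are on GRCh38, the build that the submitters' processing notes name.
ZMAT3, chr3:179070188-179070207, intron 1, minus strand, no mismatch: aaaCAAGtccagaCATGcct
GADD45A, chr1:67686775-67686794, intron 3, plus strand, 1 mismatch: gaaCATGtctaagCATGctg
CCNG1, chr5:163437926-163437945, intron 1, plus strand, 1 mismatch: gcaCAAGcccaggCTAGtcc
PMAIP1, chr18:59899549-59899568, 438 bases before the start site, plus strand, 2 mismatches: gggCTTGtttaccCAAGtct
GDF15, chr19:18385308-18385327, 841 bases before the start site, plus strand, 2 mismatches: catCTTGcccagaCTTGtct
AEN, chr15:88621306-88621325, 25 bases before the start site, plus strand, 2 mismatches: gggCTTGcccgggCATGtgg

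The start sites are those of the canonical transcripts of GENCODE release 44. In GDF15 a longer annotated transcript begins farther upstream, so its match lies within the gene as annotated. The ZMAT3, GADD45A and CCNG1 matches lie clear of every annotated exon of their gene, and each is shown with 20 reference bases on either side.
ZMAT3, chr3:179070168-179070227: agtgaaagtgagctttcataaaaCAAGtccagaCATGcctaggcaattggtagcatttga
GADD45A, chr1:67686755-67686814: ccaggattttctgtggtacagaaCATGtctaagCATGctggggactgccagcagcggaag
CCNG1, chr5:163437906-163437965: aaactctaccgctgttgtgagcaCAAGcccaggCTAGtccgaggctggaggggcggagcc

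The remaining matches, in BTG2, FAS, SPATA18 and TNFRSF10B, each had 2 mismatches and lay 399 to 1868 bases from the start site. MDM2 had no match by this rule.

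**Figure D1:**
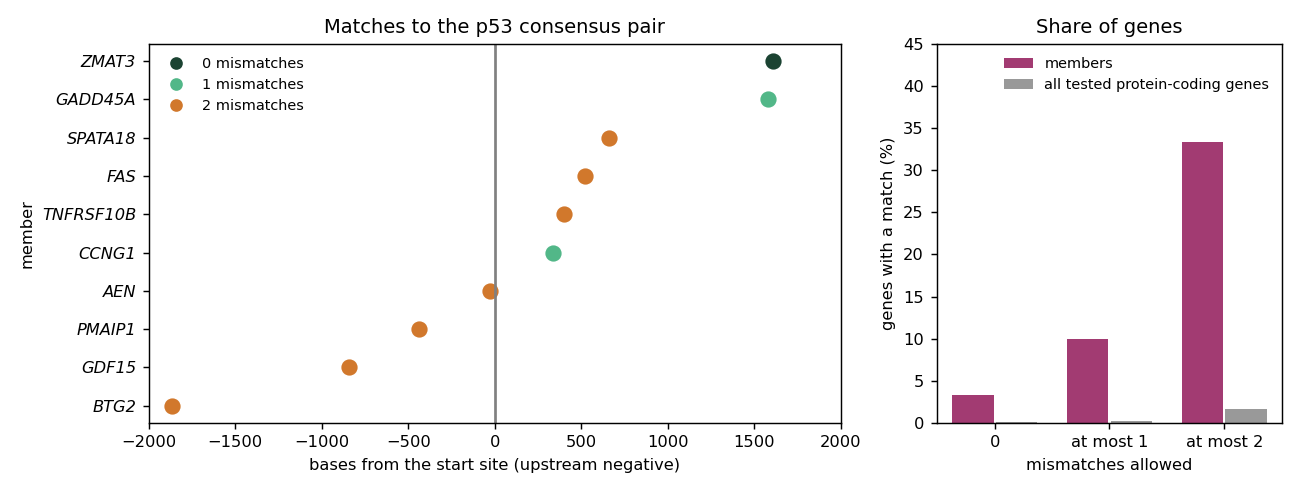
Matches to the p53 consensus pair near the start sites of the members, by distance in bases (left, colours give the mismatches), and the percentage of members and of all tested protein-coding genes with a match (right, bars from 0). With at most 2 mismatches, 33.3% of the members and 1.65% of the protein-coding genes had one.

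The level of the p53 target genes at baseline was taken from the deposited FPKM values, which are scaled for transcript length and depth and so allow genes to be compared. Most members were transcribed in the control libraries. Their median was 5.16 FPKM, against 3.82 FPKM over all tested genes, and the 29 tested members lay at a median percentile of 56.2 among those genes. A level above 10 FPKM was seen for 12 members and one under 1 FPKM for 3.

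The arrest class was the highest, with a median of 44.4 FPKM, although its genes spanned a wide range. PLK2, a stress-induced polo-like kinase, led the whole list at 162 ± 15.4 FPKM (SD, n = 3). GDF15, a secreted stress cytokine, followed at 112 ± 70.5 FPKM, and GADD45A, which inhibits CDK1 and takes part in DNA repair, at 83.6 ± 30.5 FPKM. The place of GDF15 among these 3 is not secure, since its spread between replicates covered the other 2. PLK2 was above GADD45A in each control library. At the other end of the class stood BTG2, an antiproliferative co-factor of mRNA deadenylation, at 2.12 ± 0.768 FPKM and SESN1, a sestrin that restrains mTORC1, at 1.07 ± 0.352 FPKM.

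In the apoptosis class the median was 12.2 FPKM. EI24, an endoplasmic reticulum protein also linked to autophagy, was highest at 57.2 ± 5.78 FPKM. BAX, the pore-forming executioner of the mitochondrial pathway, stood at 39.0 ± 1.79 FPKM and TNFRSF10B, the death receptor for TRAIL, at 34.5 ± 8.89 FPKM. The BH3-only genes differed, with PMAIP1 (NOXA) at 24.7 ± 12.3 FPKM and BBC3 (PUMA) at 2.62 ± 1.87 FPKM. SPATA18, which acts in the clearance of damaged mitochondrial proteins, was close to silent. It had 10, 0 and 2 reads in control 1, 2 and 3 and 0 reads in each knockdown library, where a count of 0 allows up to 3 reads for counting error alone. It was the member that failed the low-count filter, and no fold is given.

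The other classes were lower. In the repair class DDB2, which recognises ultraviolet damage, stood at 7.72 ± 0.993 FPKM and RRM2B, the p53-inducible subunit of ribonucleotide reductase, at 0.93 ± 0.0608 FPKM, with POLH and XPC between them. In the feedback class CCNG1, a cyclin that recruits a phosphatase to MDM2, reached 26.6 ± 4.004 FPKM. The other 5 genes of that class lay between 1.66 FPKM for ZMAT3 and 2.84 FPKM for FBXO22, and MDM2 itself was at 1.88 ± 0.374 FPKM. These levels depend on the transcript length that the authors divided by. From counts and FPKM that length came to 13.4 kb for MDM2, against 7.49 kb for its canonical transcript, and the 2 lengths differed by more than 1.5 times for 3 members, MDM2, BAX and POLH. Scaled by the canonical length, control MDM2 would be at 3.36 CPM per kilobase, BAX at 73.1 and POLH at 2.31. On that scale EI24 would be at 67.9, so BAX and not EI24 would have the highest mean of the apoptosis class.

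**Figure D2:**
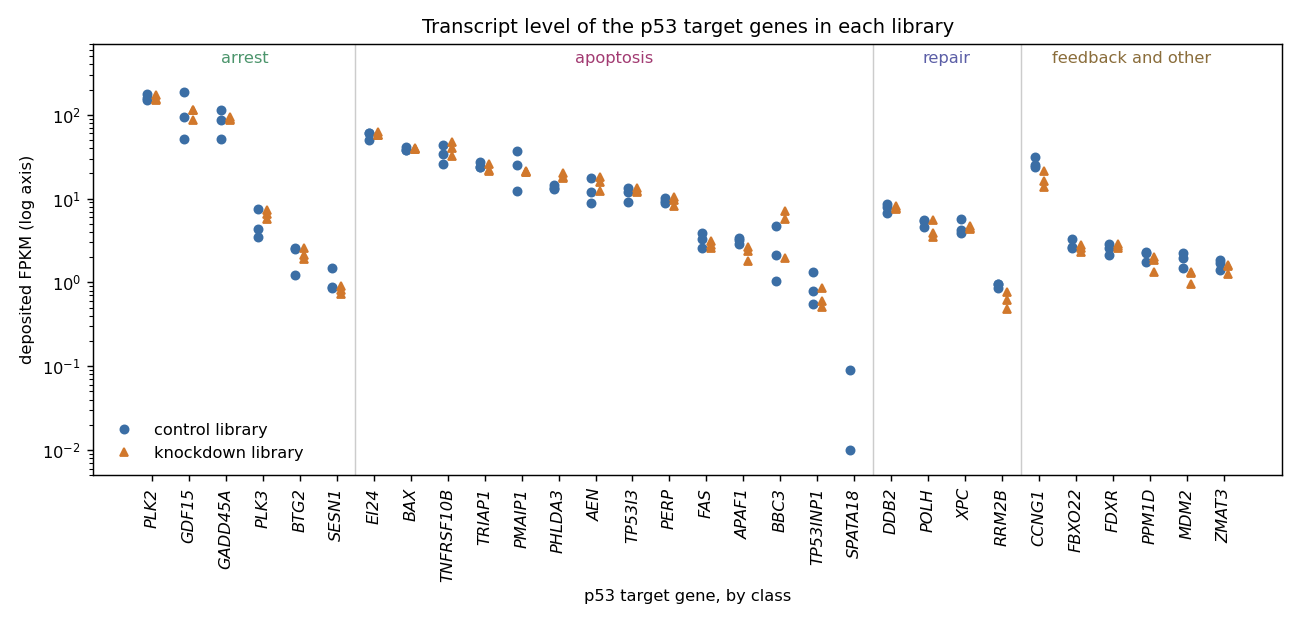
Deposited FPKM (log axis) of the 30 p53 target genes in each of the 3 control (circles) and 3 knockdown (triangles) libraries, ordered within each class by the control mean. Libraries with a value of 0 are not drawn, which applies to SPATA18 alone, and the highest member, PLK2, averaged 162 FPKM in control.

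To compare the groups, edgeR's quasi-likelihood test was run on all 15299 genes. No member reached an adjusted p under 0.05 (Benjamini-Hochberg over all of them), and 0.599 was the lowest among the members. No gene of the whole table reached it either, so the background is 0% of tested genes. DESeq2 gave 0 members and 0.188% of the genes to which it assigned an adjusted p. At an unadjusted p under 0.05 edgeR gave 5 of 29 members (17.2%), against 8.18% of all tested genes. By direction this was 1 member higher in knockdown, PHLDA3, against 3.86% of all genes, and 4 members lower, MDM2, CCNG1, RRM2B and APAF1, against 4.32%. The same 5 members were those whose CPM did not overlap between the groups, which held for 15.6% of all genes, 7.94% higher and 7.7% lower. These shares are given as a description, and none of the 5 members is a call.

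As a list the members did not lean one way. Of the 29 estimates 13 were above 0 and 16 below, and their median log2 fold change was -0.03, beside -0.01 over all tested genes. The class medians were 0.03 for arrest, 0.03 for apoptosis, -0.14 for repair and -0.21 for feedback and other genes. The 95% interval of the fold change lay within a 2-fold change either way for 24 members. For the other 5, which were BBC3, TP53INP1, RRM2B, MDM2 and SESN1, the interval reached beyond, so these libraries do not bound their difference at 2-fold.

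**Figure D3:**
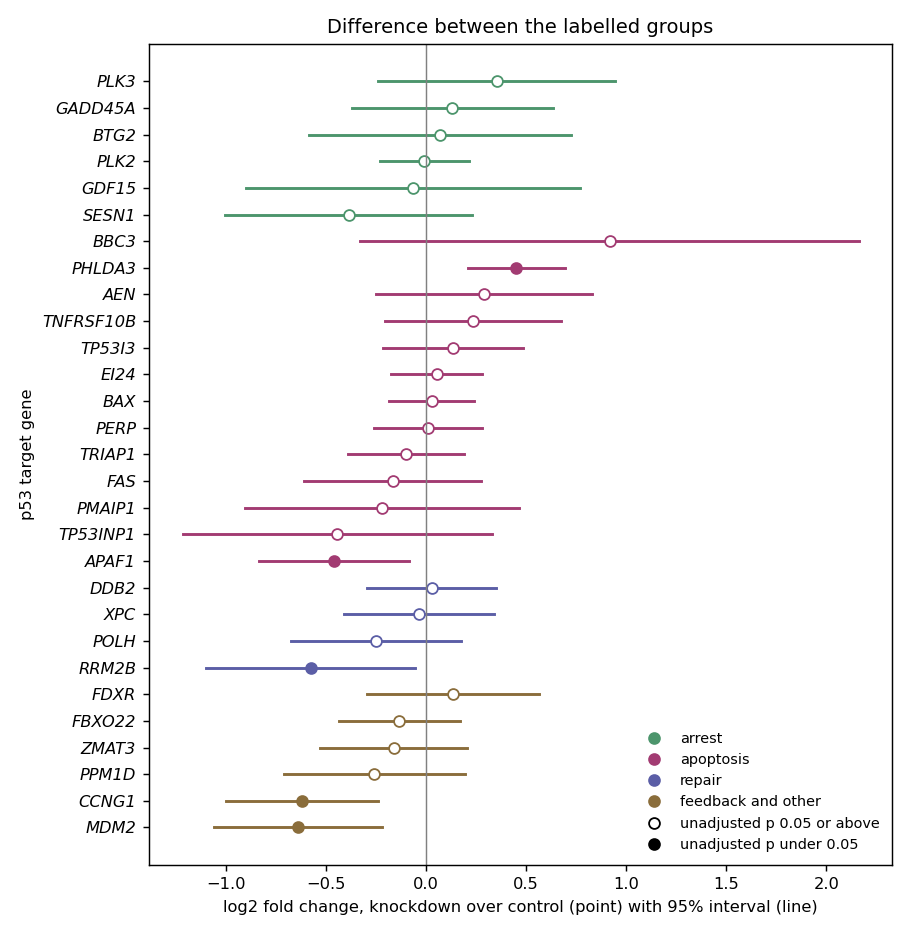
Log2 fold change of knockdown over control (points) with its 95% interval from edgeR (lines) for the 29 tested members, coloured by class. Filled points mark the 5 members at an unadjusted p under 0.05, and none had an adjusted p under 0.599.

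In the feedback class the lower values centred on MDM2 and CCNG1. MDM2 (ENSG00000135679.21, chromosome 12 from 68808177 to 68845544, plus strand), the ubiquitin ligase that limits p53, had 20.01, 29.4 and 26.2 CPM in control 1, 2 and 3 and 18.3, 17.4 and 12.9 CPM in knockdown 1, 2 and 3. The groups did not overlap, but control 1 lay close to knockdown 1. The ratio of knockdown over control was 0.643, with a log2 fold change of -0.64 (SE 0.186), a 95% interval of -1.06 to -0.22 and an edgeR adjusted p of 0.599. CCNG1 (ENSG00000113328.18, chromosome 5 from 163437569 to 163446151, plus strand), whose intron 1 holds the match printed above, had 66.2, 80.3 and 61.4 CPM in control and 36.7, 42.8 and 56.0 CPM in knockdown. All 3 knockdown libraries were below all 3 control libraries, with knockdown 3 nearest to them. Its ratio was 0.651, its log2 fold change -0.62 (SE 0.168), and its edgeR adjusted p 0.599. Both genes kept an unadjusted p under 0.05 under each of 12 alternatives. Without the low-count filter edgeR called both, with an adjusted p of 0.0332 for MDM2 and 0.0019 for CCNG1. In that setting 165 of the 26899 genes were called.

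The other genes of the class were nearer to 0. PPM1D (WIP1), the phosphatase that turns off damage signalling, had 11.4, 11.5 and 8.99 CPM in control and 10.3, 9.54 and 6.82 CPM in knockdown, and the groups overlapped. Its log2 fold change was -0.26 (SE 0.201), with an edgeR adjusted p of 0.723. ZMAT3, an RNA-binding protein that carries the perfect match, had 18.8, 17.1 and 14.1 CPM against 12.7, 16.4 and 15.6 CPM. FBXO22, a ubiquitin ligase subunit, and FDXR, a mitochondrial reductase, had log2 fold changes of -0.13 and 0.13 with overlapping groups. These came to -0.01 for FBXO22 without control 1 and 0.02 for FDXR without control 2. In turn they were -0.20 for FBXO22 without control 2 and 0.25 for FDXR without control 1.

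MDM2 shares 133 exon bases with the carboxypeptidase M gene on the opposite strand, which had 19815 reads in all against 3837 for MDM2. The sources used here do not say whether counting used strand, so reads in those bases are uncertain. The log2 fold change of that neighbour was 0.08. MDM2 also shares 785 exon bases with a long noncoding RNA on the opposite strand, which had 37 reads. A processed pseudogene on its own strand shares 439 exon bases and has no entry in the counts. The counts of CCNG1 carry another uncertainty, since a processed pseudogene of it is annotated and could take some of its reads.

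In the apoptosis class PHLDA3 and APAF1 lay on opposite sides of 0. PHLDA3 (ENSG00000174307.6, chromosome 1 from 201464278 to 201469237, minus strand), which blocks AKT at the membrane, had 38.8, 36.4 and 41.5 CPM in control and 52.01, 50.3 and 57.4 CPM in knockdown. Every knockdown library was above every control library and the replicates were tight within each group. The ratio was 1.37, the log2 fold change 0.45 (SE 0.108), with a 95% interval of 0.21 to 0.70, and the edgeR adjusted p 0.599. It was the member with the smallest unadjusted p and it stayed under 0.05 in all 12 alternatives. APAF1 (ENSG00000120868.13, chromosome 12 from 98645290 to 98735433, plus strand), the scaffold of the apoptosome, had 25.8, 22.1 and 26.9 CPM in control and 21.1, 19.1 and 14.2 CPM in knockdown. The groups were separate by a narrow margin between control 2 and knockdown 1. Its log2 fold change was -0.46 (SE 0.167), with an edgeR adjusted p of 0.602, and its unadjusted p was under 0.05 in 9 of 12 alternatives. APAF1 shares 750 exon bases with ANKS1B on the opposite strand, which had 265 reads against 3949 for APAF1. ANKS1B had a log2 fold change of -0.93 in the same direction (unadjusted edgeR p of 0.044), and its part in the APAF1 value was not tested. PHLDA3 shares 598 bases with a long noncoding RNA of 363 reads on its own strand.

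BBC3 (ENSG00000105327.15, chromosome 19 from 47220822 to 47232766, minus strand) had the largest estimate of any member and also the widest spread. It had 2.30, 4.68 and 10.3 CPM in control and 12.8, 15.7 and 4.29 CPM in knockdown. Knockdown 1 and 2 were the highest libraries, but knockdown 3 was below both control 2 and control 3. The log2 fold change was 0.92 (SE 0.552), with an edgeR adjusted p of 0.66, and it moved from 0.55 without control 1 to 1.64 without control 3. Without the low-count filter edgeR called BBC3 at an adjusted p of 0.0141 in spite of the overlap. It was among 165 of 26899 genes called there.

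The most abundant genes of the class hardly differed. EI24 had 133, 154 and 159 CPM in control and 150, 151 and 162 CPM in knockdown, with a log2 fold change of 0.05 and an interval of -0.17 to 0.28. BAX was the steadiest member, with 57.0, 56.0 and 61.3 CPM against 59.4, 58.4 and 60.02 CPM, and its interval of -0.18 to 0.24 places any difference well under 2-fold. The death receptors FAS and TNFRSF10B had log2 fold changes of -0.17 and 0.24, and their groups overlapped. The same held for AEN, a nuclease of apoptotic cells (0.29), TP53I3, a quinone oxidoreductase (0.14), PERP, a desmosomal protein (0.01), TRIAP1, a small mitochondrial survival factor (-0.10), PMAIP1 (-0.22) and TP53INP1, a stress protein that promotes cell death and autophagy (-0.44), all as log2 fold changes. Most of these values depended on a single library. PMAIP1 ran from -0.54 without control 1 to 0.18 without control 2, and TP53INP1 came to -0.03, FAS to -0.0028, TRIAP1 to -0.01, TNFRSF10B to 0.08 and AEN to 0.08 without control 1. Without control 3, TP53INP1 was -0.69, FAS -0.31, TNFRSF10B 0.45 and AEN 0.59, and TRIAP1 was -0.18 without knockdown 3. TP53I3 was -0.01 without control 2 and 0.26 without control 1, and PERP ranged from -0.06 to 0.10 when 1 library was left out. EI24, PERP and TRIAP1 also have processed pseudogenes, and TP53INP1 shares 225 exon bases with the more abundant NDUFAF6 on the opposite strand.

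**Figure D4:**
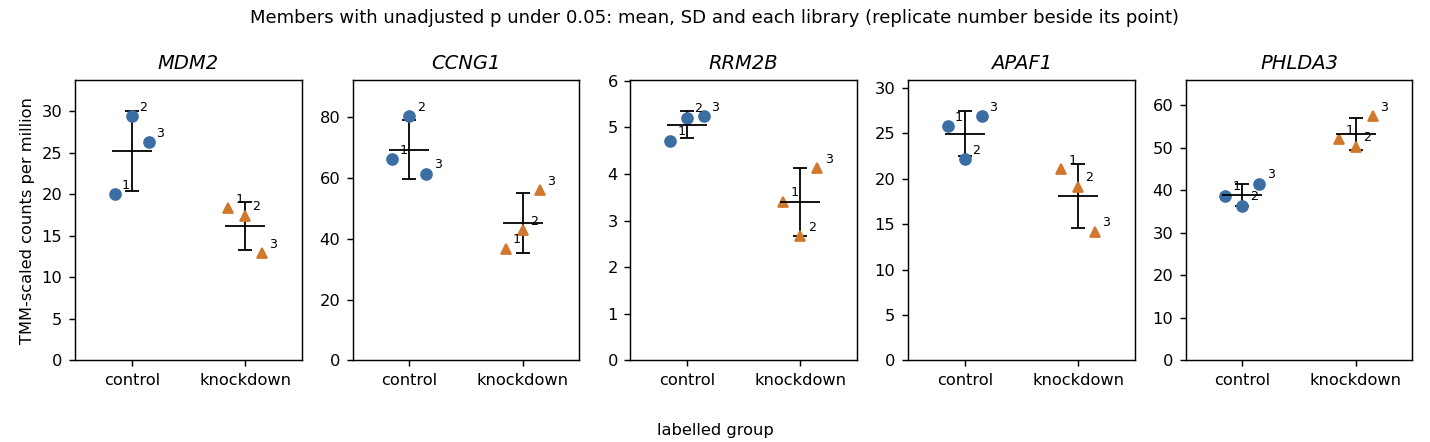
TMM-scaled CPM (axes from 0) of the 5 members with an unadjusted p under 0.05, one point per library with its replicate number, and the mean and SD of each group. In each panel the groups do not overlap, with PHLDA3 higher and the other 4 lower in knockdown.

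In the repair class RRM2B (ENSG00000048392.11, chromosome 8 from 102204502 to 102238961, minus strand) had 4.71, 5.20 and 5.23 CPM in control and 3.399, 2.67 and 4.12 CPM in knockdown. The groups were separate, yet the gene had only 88 to 170 reads per library. The log2 fold change was -0.57 (SE 0.232), with an edgeR adjusted p of 0.605, and its unadjusted p stayed under 0.05 in 7 of 12 alternatives. POLH, the translesion polymerase that bypasses ultraviolet lesions, had 21.0, 16.8 and 20.3 CPM in control and 13.3, 14.8 and 20.8 CPM in knockdown. Knockdown 1 and 2 were the lowest libraries, but knockdown 3 lay among the controls, and the edgeR adjusted p was 0.717. POLH shares 261 exon bases with the more abundant GTPBP2 on the opposite strand, and a processed pseudogene of POLH is annotated. DDB2 had 15.6, 16.8 and 13.2 CPM against 15.2, 16.2 and 15.2 CPM. XPC, the damage sensor that works with DDB2 in nucleotide excision repair, had a log2 fold change of -0.03, which was -0.15 without control 2 and 0.16 without control 1. Neither recognition factor was separated between the groups.

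In the arrest class no member was separated between the groups. SESN1 had 6.19, 3.64 and 3.60 CPM in control and 3.78, 3.03 and 3.43 CPM in knockdown, where control 1 stood apart from the 5 other libraries. Its log2 fold change of -0.39 was -0.08 without control 1 and -0.52 without control 3. PLK3, a polo-like kinase of the stress response, had 9.26, 11.3 and 19.9 CPM against 19.3, 17.4 and 14.9 CPM, with a log2 fold change of 0.35 and an edgeR adjusted p of 0.716. It was 0.15 without control 1 and 0.75 without control 3. PLK2 had 467, 490 and 559 CPM against 493, 547 and 469 CPM, with an interval of -0.23 to 0.21 around a log2 fold change of -0.01. BTG2 had a log2 fold change of 0.07 with overlapping groups, which was -0.21 without control 2 and 0.25 without control 3.

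The stronger differences in this class were between replicates. GADD45A had 82.7, 176 and 136 CPM in control 1, 2 and 3 and 143, 152 and 138 CPM in knockdown, and its log2 fold change of 0.13 turned to -0.11 without control 1. GDF15 had 65.1, 237 and 120 CPM in control and 147, 148 and 109 CPM in knockdown, and its log2 fold change of -0.06 was -0.40 without control 1 and 0.54 without control 2. PMAIP1 of the apoptosis class showed the same order in control, with 27.2, 80.4 and 55.7 CPM, whereas its knockdown libraries lay between 46.4 and 47.6 CPM. For these 3 genes control 1 was the lowest and control 2 the highest of the 6 libraries. Over all tested genes control 1 was the lowest for 21.0% and control 2 the highest for 25.7%, against 31.0% and 24.1% of the members. The share with both was not counted. Genes of the integrated stress response, which acts through ATF4, also tended to be highest in control 2. The median log2 ratio of 10 such genes to the control mean was 0.38 in control 2 and between -0.27 and -0.04 in the other 5 libraries. ATF4 and ATF3 were exceptions, while the rest of that list was highest in control 2. ATF4 was highest in knockdown 1 (784 CPM, against 696 CPM in control 2), and ATF3 was lowest in control 2 (31.5 CPM). SESN2, a sestrin that both p53 and ATF4 can raise, had 28.0, 83.8 and 33.5 CPM in control and 30.8 to 33.1 CPM in knockdown. CHAC1, an ATF4-driven glutathione-degrading enzyme, had 1.64, 20.3 and 7.16 CPM in control and 4.31 to 5.12 CPM in knockdown. The part of that response in the levels of GDF15, PMAIP1 and GADD45A was not tested.

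A different order was shared by BBC3, AEN, TNFRSF10B, PLK3 and, by a narrow margin, PLK2. They were higher in control 3, knockdown 1 and knockdown 2 than in control 1, control 2 and knockdown 3. This order is not particular to p53 targets, since the tubule and epithelial markers PAX8 and GGT1 had it too. Its share among all tested genes was not counted. AEN had 29.0, 39.5 and 58.2 CPM in control and 53.2, 61.1 and 40.7 CPM in knockdown. TNFRSF10B had 115, 146 and 192 CPM in control and 180, 210 and 143 CPM in knockdown. CDKN1A, the CDK inhibitor p21 and the classical arrest target, followed the same order, with 58.9, 90.4 and 96.6 CPM in control and 106, 127 and 72.5 CPM in knockdown. Its log2 fold change was 0.31 (SE 0.227), with an edgeR adjusted p of 0.713. For CDKN1A it was 0.12 without control 1 or without knockdown 2, and 0.51 without knockdown 3, where the edgeR adjusted p was 0.599. Control 1 and knockdown 3 were the shallowest libraries. They were the 2 lowest libraries for 5 of 29 members (17.2%) and for 13.9% of all tested genes. Those 5 members were GDF15, BBC3, TNFRSF10B, PLK2 and PMAIP1, without AEN and PLK3. Control 1 was the lowest library for 31.0% of the members and the highest for 31.0%, against 21.0% and 20.1% of all tested genes. The groups of genes with a shared library order were chosen after their values were seen, and the part of depth was not tested.

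The control libraries varied more than the knockdown libraries. The coefficient of variation was larger in control for 22 of 29 members (75.9%), against 61.7% of all tested genes. It exceeded 30% in control for 9 members (31.0%), GDF15 and BBC3 among them, against 23.8% of all tested genes, and in knockdown for BBC3 alone. The median over the members was 16.2% in control and 11.2% in knockdown, near the 15.6% and 12.2% of all tested genes.

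**Figure D5:**
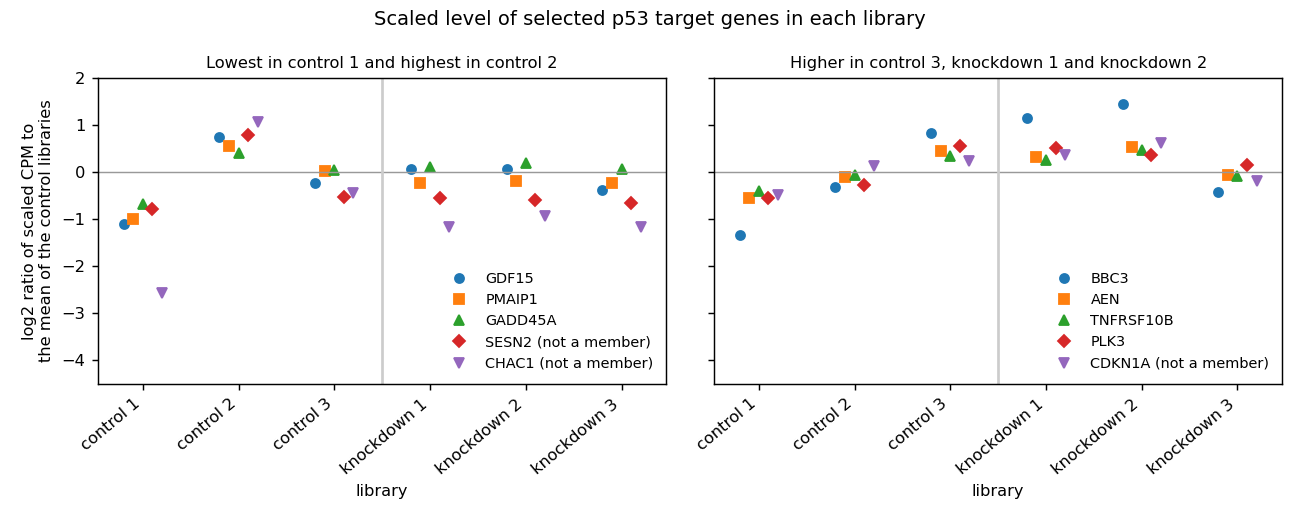
Log2 ratio of scaled CPM to the mean of the control libraries, one point per gene and library (replicates have no order). At left, GDF15, PMAIP1, GADD45A and the non-members SESN2 and CHAC1 are lowest in control 1 and highest in control 2, and at right BBC3, AEN, TNFRSF10B, PLK3 and the non-member CDKN1A are higher in control 3, knockdown 1 and knockdown 2.

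Finally, the genes that control p53 were examined with its further targets. UBE3A, the ligase that E6 recruits, had 62.6, 83.2 and 71.5 CPM in control and 56.6, 69.9 and 55.9 CPM in knockdown, with a log2 fold change of -0.25 and an edgeR adjusted p of 0.637. MDM4, the partner of MDM2 that inhibits p53, had 16.4, 21.6 and 19.3 CPM against 21.1, 18.0 and 18.3 CPM, and a fold change of 0.00 on the log2 scale.

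Of 16 upstream regulators, 15 were tested and 0 passed an adjusted p of 0.05. At an unadjusted p under 0.05, 1 was higher and 1 lower, 13.3% in all against 8.18% of all tested genes. HIPK2, a kinase that phosphorylates p53, was lower, with 116, 112 and 98.0 CPM in control, 88.3, 95.8 and 79.1 CPM in knockdown and an edgeR adjusted p of 0.602. CDKN2A, which encodes p16 and the MDM2 inhibitor ARF, was higher, with 400, 347 and 348 CPM against 432, 394 and 441 CPM and an edgeR adjusted p of 0.608. Its groups overlapped, and its control level of 110 ± 8.27 FPKM was the highest of the regulators.

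Of 20 further p53 targets, 19 were tested. The median of their log2 fold changes was 0.10, and 12 estimates were above 0. RPS27L, a ribosomal protein paralogue that modulates MDM2, was the single gene at an unadjusted p under 0.05 (5.26%, against 8.18% of all tested genes). It had 50.7, 36.4 and 51.1 CPM in control and 58.8, 54.1 and 74.2 CPM in knockdown, a log2 fold change of 0.44 and an edgeR adjusted p of 0.605. E2F7, an atypical E2F repressor, came next, with 13.2, 15.8 and 14.4 CPM against 12.7, 11.2 and 10.7 CPM. Its groups did not overlap, its log2 fold change was -0.32 and its edgeR adjusted p 0.61. Groups without overlap were seen for 4 of the 19 further targets (21.1%), against 15.6% of all tested genes. No regulator and no further target was thus called, as with the members.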

How the data were processed

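The authors deposited 2 tables. One holds raw read counts per gene (26899 genes), and the other holds FPKM values that the authors gave to 2 decimals (26803 genes). The submitters' processing notes name bcl2fastq, TopHat2, edgeR and GRCh38, with no roles. Of the annotation, counting program and use of strand, the sources used here say nothing. The paper supplied with the series describes another experiment, so no method was taken from it.

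Genes were tested with edgeR 4.0.16 in R 4.3.3 (TMM scaling, low-count filter with a minimum count of 10 and a total of 15, quasi-likelihood test, no covariates, all 6 libraries, Benjamini-Hochberg adjustment at 0.05, two-sided). CPM are counts per 1000000 reads in tested genes, corrected by the TMM factor, 0.987 to 1.02. The standard error is the absolute log2 fold change over the square root of F, and intervals are 95%. Exact permutation tests of 3 against 3 libraries cannot go below 0.1 and are not quoted. FPKM were used for levels only. Scripts were tested on simulated counts. Precision is set by 3 libraries per group and depths of 24231267 to 34561675 reads.

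The members and lists were chosen with earlier results of these data known, from general knowledge. Values per library were given for the 3 members of each class with the smallest p, those with the highest and lowest control FPKM, ANXA2, MDM4, UBE3A, CDKN1A and the 2 genes with the smallest p of both further lists. SESN2, CHAC1, AEN, TNFRSF10B, BAX, GDF15 and PMAIP1 were added after their values were seen. Some genes of the lists are not reported here. Alternatives were RLE factors, library sizes only, no filter, DESeq2 1.42.0, a replicate block and omission of libraries.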

Additional observations from a re-analysis of the deposited data

How the results depend on the processing

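Of 276 estimates for 23 named genes under 12 alternatives, 261 had the sign and the call of the reported fit, 3 crossed the adjusted threshold (MDM2, CCNG1 and BBC3 without the low-count filter) and 12 changed sign, all in genes with an adjusted p above 0.7. The sign changes were MDM4 with library sizes only (-0.022), and, without both control 1 and knockdown 3 (a setting chosen after seeing the data), GADD45A (-0.082), EI24 (-0.054) and MDM4 (-0.059). When 1 library was left out, GADD45A (-0.11), EI24 (-0.021) and MDM4 (-0.093) changed sign without control 1, PLK2 (0.072) and DDB2 (-0.063) without control 3, PLK2 (0.0077) and MDM4 (-0.073) without knockdown 1, and PLK2 (0.042) without knockdown 3. Over the settings that leave out libraries, these genes ranged up to 0.40 for GADD45A, 0.11 for EI24, 0.11 for DDB2 and 0.10 for MDM4, and down to -0.069 for PLK2.

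The count of all genes past an adjusted p of 0.05 was 0 with edgeR (1251 at an unadjusted p under 0.05), 165 without the filter, 31 with DESeq2, 6 without both control 1 and knockdown 3, and 0 to 4 when 1 library was left out. The count of p53 target genes past it was 0, and 3 of 29 without the filter, beside 165 of 26899 genes. At an unadjusted p it was 5 (8.18% of all tested genes), 8 without the filter (7.73%), 7 without both libraries (14.8%), and 4 to 7 when 1 library was left out (3.21% to 12.4%). The cause was not tested. The median of the feedback class moved from -0.21 to -0.083 without both libraries, and was -0.32 without control 3 and -0.13 without control 1. The arrest median of 0.03 was -0.071 without control 1 and -0.046 without both, the repair median of -0.14 was -0.069 without control 1, -0.071 without knockdown 1, -0.25 without control 2 and -0.26 without knockdown 3, and the apoptosis median of 0.03 ranged from -0.0051 to 0.075. Control and knockdown libraries of the same number did not deviate together (correlations of -0.062, 0.12 and -0.20). Pairs of different number ran from -0.23 to 0.22. Deviations from means of 3 libraries cannot tell whether libraries of the same number shared a culture or batch. With a replicate block 4 members had an unadjusted p under 0.05 (against 7.03% of all tested genes) and 0 an adjusted one. The number of libraries, 3 per group, limits the precision, and RRM2B rests on 88 to 170 reads per library.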
